A study of Mus musculus with 4 samples.

Results

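Interferon-stimulated genes are described here in podoplanin-selected cells of tumour-draining mouse lymph nodes. The set was fixed as a list of 38 gene symbols, and a gene was represented by the probe set with its highest mean over the 4 arrays among the probe sets annotated with that symbol alone. This gave 36 genes with 63 probe sets, out of 18193 genes with a single-symbol probe set. For Isg15 the platform annotation pairs the probe set with 2 gene symbols, and Isg15 and Ifi44 were not analysed here.

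In the study, human 293 cells, an embryonic kidney line, were grown as tumours under the skin of female SCID/NOD mice aged 6 to 8 weeks, an immunodeficient strain that both groups share. The metastatic group came from 293-VEGF-D tumours, whose cells overexpress the lymphatic growth factor VEGF-D, and the non-metastatic group from 293-Apex tumours without VEGF-D. Tumours had grown for 3 to 4 weeks, to 1600 to 2500 mm3, when the draining left axillary node was removed; each preparation pooled the nodes of 1 to 5 mice, and metastatic-group nodes were used only when visibly enlarged. Digested node cells were cultured briefly in endothelial growth medium and then selected for podoplanin, and each group had 2 preparations with 1 array each. The sorting label gives a depletion of tumour cells and of leukocytes ahead of culture for the metastatic preparations and none for the non-metastatic ones. Depletion, enlarged nodes and VEGF-D therefore go with the group and cannot be told apart. The podoplanin gene Pdpn averaged 10.86 ± 0.04 log2 signal in metastatic and 10.35 ± 0.00 in non-metastatic preparations (SD, n = 2 each), and Pdgfra of fibroblastic stroma averaged 12.39 ± 0.32 and 12.14 ± 0.20. The endothelial markers Pecam1 (4.77 ± 0.01 and 5.11 ± 0.35) and Prox1 (3.93 ± 0.27 and 4.07 ± 0.14) were dim, below the median of all probe sets (5.95). By their mean over the 4 arrays, 4 of 7 measured lymphatic and 6 of 10 blood endothelial markers lay above that median. So did 11922 of all 18193 genes, each taken by its brightest probe set. The 4 lymphatic ones included Pdpn, on which the cells were selected. They also included Lyve1, whose mean was 5.27 in the metastatic and 8.03 in the non-metastatic group. Lyve1 of lymphatic endothelium had 6.32 and 4.23 log2 signal on the metastatic arrays, against 8.26 and 7.80 on the non-metastatic arrays, and Emcn of blood endothelium had 6.50 and 5.66, against 8.77 and 8.45. Neither difference passed (-2.76 and -2.53, limma adjusted p of 0.498 and 0.185). Each was the most negative of its list, and the list medians were -0.13 (lymphatic) and -0.21 (blood). Differences were negative for 5 of 7 lymphatic and 6 of 10 blood endothelial markers, and positive for 2 and 4. The titles label the cells LN EC (lymph node endothelial cells), and the signs of these differences do not bear on that label. Over the 4 arrays, the median signal was 6.35 for the lymphatic and 6.26 for the blood endothelial list. It was 12.25 for reticular fibroblast, 7.48 for mural, 6.52 for epithelial and 6.16 for leukocyte markers, against 7.20 over all genes. The share of each cell type was not tested.

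Interferons are secreted proteins that cells release on sensing viral or misplaced nucleic acid. Type I interferon binds the receptor Ifnar1 and Ifnar2, whose kinases activate STAT proteins. Stat2, another STAT protein and Irf9 then form a complex that binds the interferon-stimulated response element in the promoters of target genes. The targets include sensors of foreign RNA, enzymes that degrade or block viral RNA, and proteins that hold back virus entry or release. In lymph nodes, stromal and endothelial cells can respond to interferon, as leukocytes can.

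For the interferon-stimulated genes, no difference between the groups passed the test, whereas the 2 metastatic preparations lay far apart. All 36 genes had higher signal on the array of metastatic replicate 1 than on that of metastatic replicate 2, while 47.0% of all genes did. The median gap between these arrays was 0.97 log2 units, with a range of 0.14 to 2.25, against a median of -0.02 over all genes. Between the 2 non-metastatic arrays the median gap of the same genes was -0.01, with 16 genes higher on replicate 1 (46.7% of all genes) and 20 higher on replicate 2. The gap was wider between the metastatic than between the non-metastatic arrays for 35 of the 36 genes, Mx1 being the exception, and for 64.3% of all genes. A gap is a difference between single arrays and has no test.

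**Figure D1:**
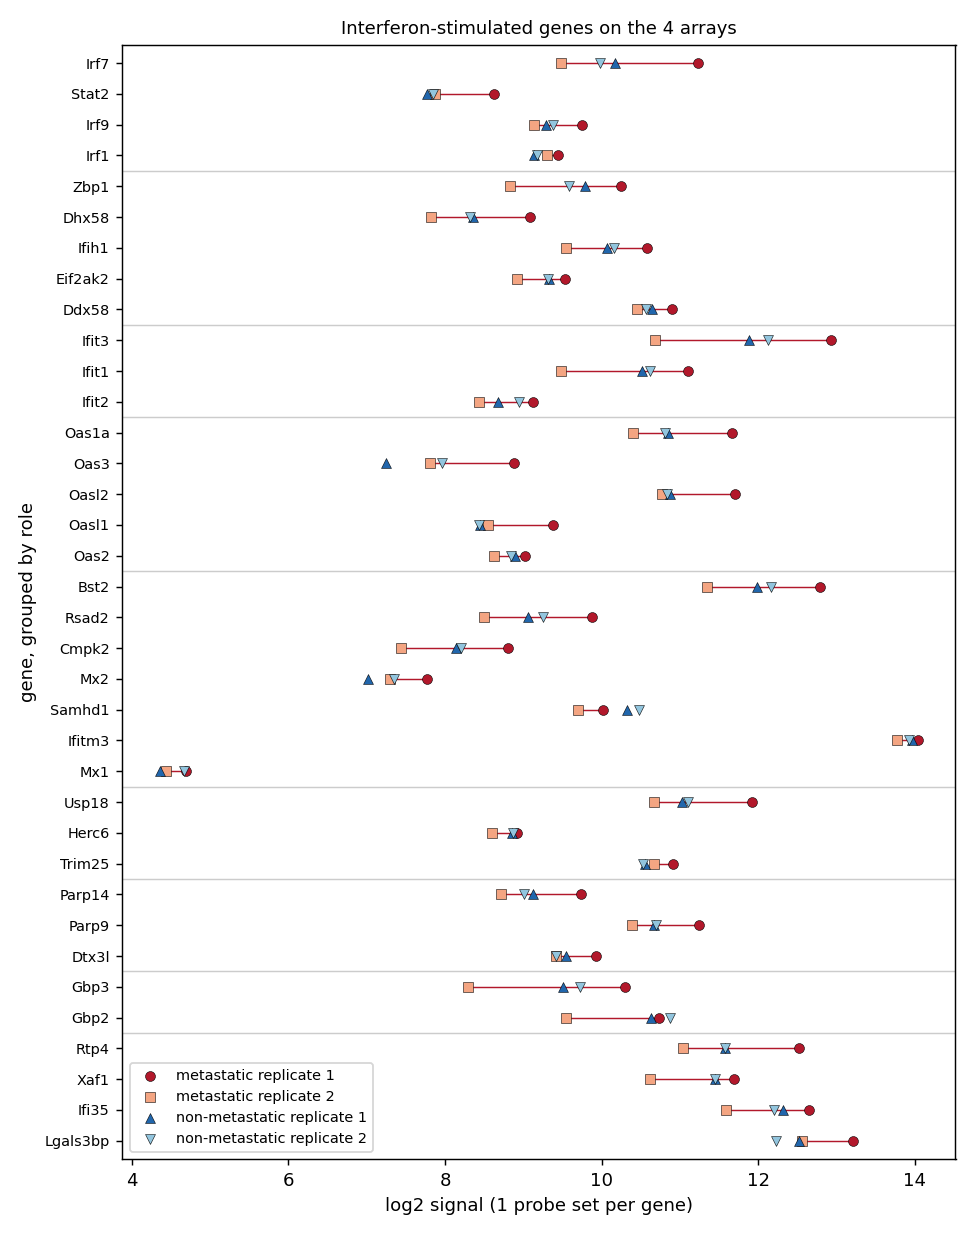
Log2 signal of each of the 36 genes (rows, grouped by role) on the 4 arrays (symbols); a line joins the 2 metastatic arrays. On every row metastatic replicate 1 lies to the right of metastatic replicate 2, and the non-metastatic symbols mostly lie between them.

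At a gap of at least 1 log2 unit, which is 2-fold, 18 of the 36 genes were higher on metastatic replicate 1 and 0 on metastatic replicate 2. Over all genes the shares were 1.22% and 0.539%. No member had such a gap between the non-metastatic arrays, where the shares over all genes were 0.335% and 0.401%. The 18 genes made up 8.11% of the 222 genes with a gap of this size toward replicate 1. Ifit3 ranked 16, Gbp3 31 and Irf7 41 among the 18193 genes ordered by this gap.

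For most of the genes the non-metastatic arrays lay between the metastatic ones. Metastatic replicate 1 was above both non-metastatic arrays for 34 of 36 genes (36.7% of all genes), and metastatic replicate 2 was below both for 28 (34.4% of all genes). Both held for 26 genes, against 11.0% of all genes, and the opposite arrangement held for 0 members and 2578 of the 18193 genes. Relative to the non-metastatic mean, the median over members was 0.56 for metastatic replicate 1 and -0.39 for metastatic replicate 2. These values share the same non-metastatic arrays and are not independent of each other.

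**Figure D2:**
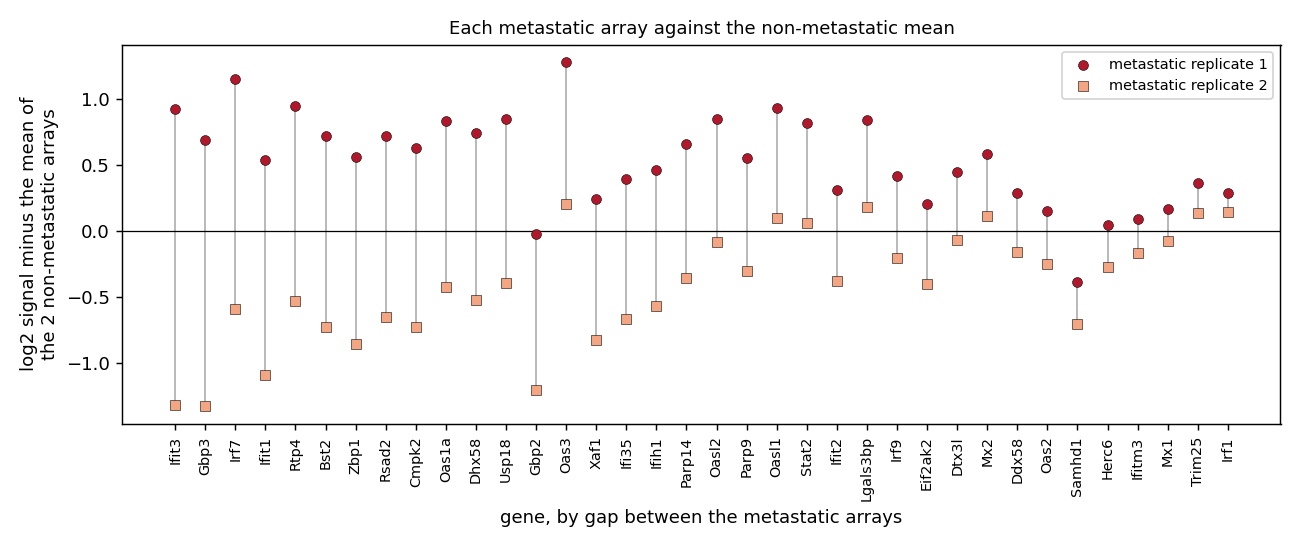
Log2 signal of each metastatic array minus the mean of the 2 non-metastatic arrays (y axis) for the 36 genes (x axis, ordered by the gap between the metastatic arrays). Circles for replicate 1 lie above the zero line except for Gbp2 and Samhd1, and squares for replicate 2 lie mostly below it.

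In the comparison of the groups, limma with Benjamini-Hochberg adjustment over 45037 probe sets called 0 of the 36 genes and 0 of all 18193 genes (0%), with a smallest adjusted p among members of 0.609. With the replicate number as a block, limma called 0 members and 0.511% of all genes, and with trend and robust moderation 0 members and 0.0220%. At an unadjusted p under 0.05 there were 0 members higher and 1 lower, where 2.63% and 4.07% of all genes were. Of the members, 20 had a positive difference (metastatic minus non-metastatic mean) and 16 a negative one, with a median of 0.06 log2 units, and 49.9% of all genes had a positive difference. Groups did not overlap for 5 members with higher signal in the metastatic group (17.2% of all genes) and for 1 with lower signal (17.3% of all genes). Leaving out metastatic replicate 2 gave an upward count of 34 (36.8% of all genes), and leaving out non-metastatic replicate 2 gave 8 (30.8% of all genes). Leaving out metastatic replicate 1 gave a downward count of 28 (34.4% of all genes), and leaving out non-metastatic replicate 1 gave 2 (30.4% of all genes). With 2 arrays a group, the smallest p that an exact permutation test (two-sided) allows is 0.333.

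The median difference depended on which metastatic array was kept. Without metastatic replicate 2, 34 of 36 differences were positive (47.8% of all genes), with a median of 0.58 and 26 members at an unadjusted p under 0.05 upward (7.59% of all genes). Without metastatic replicate 1, 29 were negative (47.5% of all genes), with a median of -0.39 and 20 members at an unadjusted p under 0.05 downward (6.48% of all genes). No member passed limma with Benjamini-Hochberg adjustment in either case, while 0% and 0.187% of all genes did, and the smallest adjusted p was 0.118 without replicate 2 and 0.0754 without replicate 1. In these fits the lone metastatic array is assumed to vary like the non-metastatic ones.

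A few promoters are shown to let the letters of the interferon-stimulated response element be seen in place; they were chosen for holding the motif, and some genes with wide gaps, such as Irf7 and Cmpk2, had no match in their window. RefSeq promoter windows (GRCm38.p6, C57BL/6J), from 250 bases before to 50 after a gene's start, matched 27 of the 36 genes. The motif searched, on both strands, was GAAA, any 2 bases and GAAA, which reads TTTC, any 2 bases and TTTC on the other strand. It was in a window of 13 of these 27 genes (48.1%), of 17 of 39 other interferon-stimulated genes (43.6%) and of 3.99% of the 27025 genes in the table. The 4 members with the widest gap and this motif in the last 150 bases before the start are printed from position -150 to -1, 5′ to 3′ on the gene's strand, with the motif in capitals.
Ifit3 (chr19:34583379-34583528, plus strand): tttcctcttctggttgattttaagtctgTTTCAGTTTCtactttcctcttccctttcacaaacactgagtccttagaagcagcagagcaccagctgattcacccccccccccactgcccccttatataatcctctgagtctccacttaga
Gbp3 (chr3:142559894-142560043, plus strand): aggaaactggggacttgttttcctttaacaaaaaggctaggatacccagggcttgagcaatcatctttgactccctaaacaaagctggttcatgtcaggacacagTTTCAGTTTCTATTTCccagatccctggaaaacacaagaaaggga
Ifit1 (chr19:34640739-34640888, plus strand): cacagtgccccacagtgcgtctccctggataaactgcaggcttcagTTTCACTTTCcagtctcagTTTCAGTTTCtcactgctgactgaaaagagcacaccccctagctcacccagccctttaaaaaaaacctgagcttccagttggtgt
Bst2 (chr8:71537473-71537622, minus strand): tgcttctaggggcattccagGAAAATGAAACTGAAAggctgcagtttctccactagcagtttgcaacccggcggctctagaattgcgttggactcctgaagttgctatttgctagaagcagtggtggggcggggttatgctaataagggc
In Gbp3 and Bst2 the capitals hold 2 matches that overlap each other, and Ifit1 has 2 separate ones, starting at -104 and -85. In Ifit3 the stretch has 1 match, starting at -122.

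Among the 13 genes with the motif the median gap between the metastatic arrays was 1.18 log2 units (0.26 to 2.25), and 9 had a gap of at least 1. Among the 14 without it the median was 0.67 (0.14 to 1.75), and 4 had such a gap. The 13 genes held 19 matches, 14 before the start and 5 after it, and in 4 genes, among them Ifitm3 and Ifih1, all matches lay after the start. The gamma-activated site was searched as TTCNNNGAA, which reads the same on both strands. It was in windows of 8 of the 27 members (29.6%), of 7 of 39 other interferon-stimulated genes (17.9%) and of 9.55% of all genes. It overlapped a match of the first motif in 2 members. These matches are letters in a window of a reference strain and were not tested as binding sites.

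Of the 4 transcription factors, Irf7 differed most between preparations (pairs of array values here and below are replicates 1 and 2). Irf7, which drives production of type I interferon and amplifies the response, had 11.23 and 9.48 log2 signal on the metastatic arrays, against 10.17 and 9.98 on the non-metastatic arrays. Its metastatic arrays thus lay on either side of the non-metastatic pair, 3.37-fold apart. Stat2 had 8.63 and 7.87 in the metastatic group, against 7.77 and 7.84 in the non-metastatic group. On this probe set metastatic replicate 1 alone stood apart. The other Stat2 probe set was nearly as bright (mean 8.01 against 8.03) and had 8.73 and 7.65, against 7.78 and 7.87. There the groups overlapped, with a gap of 1.08 between the metastatic arrays. Irf9, the DNA-binding partner of Stat2, had 9.75 and 9.14, against 9.29 and 9.38. Irf1, which responds to interferon gamma as well as to type I interferon, had 9.44 and 9.30 on the metastatic arrays and 9.14 and 9.17 on the non-metastatic arrays. The Irf1 gap of 0.14 was the narrowest of all members, and its groups did not overlap. All 4 factors had positive differences, from 0.11 to 0.44, and none passed (limma adjusted p of at least 0.902).

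The sensors recognise viral nucleic acid inside the cell. Zbp1, a sensor of Z-form nucleic acid that can start necroptosis, had 10.25 and 8.83 log2 signal on the metastatic arrays and 9.79 and 9.59 on the non-metastatic arrays. Dhx58, which encodes the regulator LGP2, had 9.09 and 7.82, against 8.36 and 8.32. Ifih1, which encodes the long double-stranded RNA sensor MDA5, had 10.57 and 9.55, against 10.07 and 10.16. In all 3 the groups overlapped, with the metastatic arrays outside the non-metastatic ones on both sides. Ddx58, which encodes RIG-I, had 10.90 and 10.45 on the metastatic arrays and 10.64 and 10.57 on the non-metastatic arrays. Eif2ak2, which encodes the kinase PKR that halts translation, had 9.53 and 8.92, against 9.32 and 9.32. On the chosen probe sets the last 2 genes had the narrower gaps of this group, 0.45 and 0.61. Their other probe sets had gaps of 0.83 and 0.26 for Ddx58 and of 0.58 and 1.38 for Eif2ak2. Those of Dhx58 disagreed, with a gap of 2.06 and a difference of 0.65 on one (mean 7.12). The other (mean 5.98) had a gap of 0.00 and a difference of -0.09. The 5 sensors had differences of -0.15 to 0.11 on the chosen probe sets.

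The IFIT family, whose proteins bind viral RNA and limit its translation, included the gene with the widest gap, Ifit3. Ifit3 had 12.93 and 10.68 log2 signal on the metastatic arrays, against 11.89 and 12.12 on the non-metastatic arrays. This is a 4.75-fold gap within the metastatic group, while the group means, 11.81 ± 1.59 and 12.00 ± 0.16 (SD, n = 2 each), differed by -0.20 (SE 0.68). Ifit1 had 11.10 and 9.48 on the metastatic arrays and 10.51 and 10.61 on the non-metastatic arrays. Ifit2 had 9.12 and 8.43, against 8.68 and 8.94. In each the non-metastatic pair lay inside the metastatic pair, and the group differences of Ifit1 and Ifit2 were -0.27 (SE 0.49) and -0.03 (SE 0.24).

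OAS enzymes make 2′-5′ oligoadenylates that activate an RNA-degrading enzyme, whereas the OAS-like protein Oasl1 acts in other ways. Oas1a had 11.67 and 10.40 log2 signal in the metastatic group, against 10.84 and 10.82 in the non-metastatic group. Oas3 had 8.88 and 7.80, against 7.24 and 7.96. Its difference, 0.74 (SE 0.40), was the most positive of the members, and it was the member with the widest gap between the non-metastatic arrays (-0.71). Oasl1 had 9.38 and 8.54 on the metastatic arrays and 8.45 and 8.43 on the non-metastatic arrays, without overlap between the groups. Oasl2 had 11.71 and 10.77, against 10.87 and 10.84, and Oas2 had 9.03 and 8.62, against 8.90 and 8.84. The differences of the 5 genes ran from -0.05 for Oas2 to 0.74, and none passed (limma adjusted p of at least 0.897).

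Some of the other antiviral effectors had wide gaps and others narrow ones. Bst2, the tetherin that holds budding virus at the cell surface, had 12.79 and 11.35 log2 signal on the metastatic arrays and 11.98 and 12.16 on the non-metastatic arrays. Rsad2, the enzyme viperin, had 9.87 and 8.50, against 9.05 and 9.25, and Cmpk2, a nucleotide kinase gene that lies beside it in the genome, had 8.81 and 7.44, against 8.14 and 8.21. These 3 genes had gaps of 1.36 to 1.45 and group differences of -0.05 to 0.04. Ifitm3, which blocks virus entry at endosomes, had 14.03 and 13.78 on the metastatic arrays and 13.96 and 13.93 on the non-metastatic arrays, a gap of 0.26. The dynamin-like GTPase genes Mx1 and Mx2 had gaps of 0.25 and 0.47. Mx1 was dim on all arrays (4.36 to 4.69), below the median of all probe sets. Mx2 had 7.77 and 7.30, against 7.02 and 7.35.

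Samhd1, which depletes nucleotides needed by retroviruses, was the only member whose signal was lower on both metastatic arrays than on both non-metastatic arrays. It had 10.02 and 9.70 log2 signal on the metastatic arrays and 10.33 and 10.47 on the non-metastatic arrays, a difference of -0.55 (SE 0.15, limma adjusted p = 0.609). Its other 4 probe sets also had negative differences, from -0.04 for a dim one (mean 4.74) to -0.45. On 2 of them metastatic replicate 2 was the higher array, by 0.16 and 0.11, and the only other probe set of any member with this order was a dim one of Xaf1. Over all members, metastatic replicate 1 was higher on 60 of 63 probe sets.

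Of the genes around the ubiquitin-like protein Isg15, Usp18 had the widest gap. Usp18, the protease that removes Isg15 from proteins and restrains the type I receptor, had 11.92 and 10.67 log2 signal in the metastatic group, against 11.03 and 11.10 in the non-metastatic group. Herc6, which in mouse is the ligase that attaches Isg15, had 8.91 and 8.60, against 8.86 and 8.87. Its chosen probe set had a gap of 0.32, whereas the other 3 had gaps of 1.03 to 1.34. Trim25, a ubiquitin ligase acting with RIG-I, had 10.91 and 10.67 on the metastatic arrays and 10.55 and 10.52 on the non-metastatic arrays, without overlap, and its gap of 0.23 was among the narrowest. The Trim25, Ifi35 and Gbp2 values come from probe sets whose names mark them as able to bind several transcripts.

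Parp9, Parp14 and Dtx3l, of which Parp9 and Dtx3l form a complex that modifies histones and other proteins, had similar profiles. Parp9 had 11.24 and 10.38 log2 signal on the metastatic arrays, against 10.67 and 10.69 on the non-metastatic arrays. Parp14 had 9.73 and 8.72, against 9.13 and 9.01, and Dtx3l had 9.93 and 9.41, against 9.54 and 9.42. On the chosen probe sets the gaps ran from 0.51 to 1.01 and the differences from 0.13 to 0.19, each smaller than or about equal to its SE. The other probe set of Dtx3l had a gap of 1.09, and a dim one of Parp14 (mean 5.30) had 0.33.

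The guanylate-binding proteins, which interferon gamma induces strongly and which attack the vacuoles of intracellular pathogens, were both lower on metastatic replicate 2 than on the other 3 arrays. Gbp3 had 10.30 and 8.29 log2 signal in the metastatic group, against 9.51 and 9.72 in the non-metastatic group, a 4.05-fold gap. Gbp2 had 10.73 and 9.55, against 10.63 and 10.87, so that replicate 1 lay within the non-metastatic pair and replicate 2 below it. Its difference, -0.61 (SE 0.37), was the most negative of the members and did not pass (limma adjusted p = 0.930). A further probe set of Gbp2, not marked as shared between transcripts, had -0.64 (SE 0.34).

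Among the remaining members, Rtp4, a chaperone of some cell-surface receptors that also limits RNA viruses, had 12.53 and 11.04 log2 signal on the metastatic arrays and 11.57 and 11.58 on the non-metastatic arrays. Xaf1, a partner of the apoptosis inhibitor XIAP, had 11.69 and 10.62, against 11.45 and 11.45. Both had metastatic arrays on either side of a non-metastatic pair that hardly differed. Ifi35 had 12.65 and 11.59, against 12.31 and 12.20. Lgals3bp, a secreted glycoprotein, had 13.22 and 12.56 on the metastatic arrays and 12.52 and 12.23 on the non-metastatic arrays, a difference of 0.51 (SE 0.24) without overlap. With Irf1, Stat2, Oasl1 and Trim25 it made up the 5 members whose groups did not overlap upward on the chosen probe set. On the other Stat2 probe set they overlapped.

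**Figure D3:**
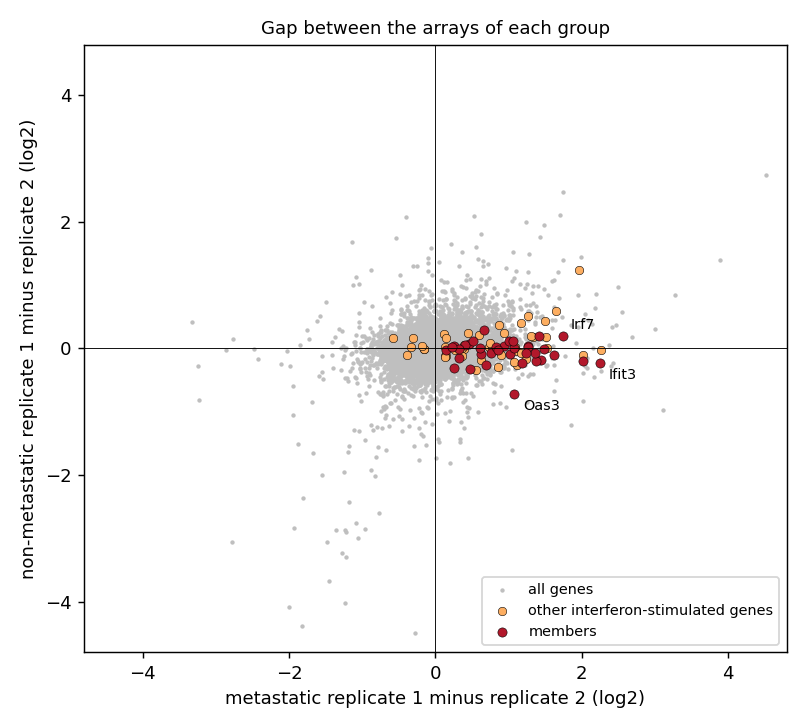
Gap between the metastatic arrays (x axis, replicate 1 minus replicate 2, log2) against the gap between the non-metastatic arrays (y axis) for all 18193 genes (grey), 48 other interferon-stimulated genes (orange) and the 36 members (red). The members spread from 0.14 to 2.25 on the x axis and lie near zero on the y axis, with Oas3 lowest at -0.71.

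The ligands and receptors did not share the gap. Of 11 measured genes, 6 were higher on metastatic replicate 1 and 5 on replicate 2, with a median gap of 0.03 and a range of -0.25 to 0.29. The widest were those of Ifna4 (0.29) and of Ifnlr1 (-0.25), a receptor chain for interferon lambda, and the receptor genes Ifnar1 and Ifnar2 had 0.03 and 0.16. The interferon genes Ifnb1, Ifna1, Ifna2, Ifna4 and Ifng had group means of 3.64 to 6.06 log2 signal, and no detection calls were used here, so it cannot be said whether they were expressed. By group, Ifng had 4.05 ± 0.11 in metastatic and 3.64 ± 0.00 in non-metastatic preparations (SD, n = 2 each), and the interferon gamma receptor gene Ifngr1 had 9.99 ± 0.17 and 9.58 ± 0.21. The differences of 0.41 for both did not pass (limma adjusted p = 0.624 and 0.788). Ifngr2 and Il10rb had -0.20 and -0.24.

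Of 28 measured signalling genes, 20 were higher on metastatic replicate 1 and 8 on replicate 2, with a median gap of 0.07 and none of at least 1. The widest gap was that of Tlr3, the endosomal receptor for double-stranded RNA, with 8.66 and 7.88 log2 signal on the metastatic arrays, against 8.21 and 8.19 on the non-metastatic arrays. Irf2, Ikbke and Tbk1, of which the last 2 encode kinases that activate interferon regulatory factors, followed with gaps of 0.52, 0.44 and 0.43. By group none passed. The smallest p values belonged to Sting1, the adaptor of DNA sensing, with 0.30 (SE 0.11), Jak1, a receptor kinase, with 0.38 (SE 0.14), Irf3 with -0.29 (SE 0.12) and Tlr7 with 0.24 (SE 0.12), at limma adjusted p of 0.763 to 0.882.

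A separate list of interferon-stimulated genes that are not members showed a similar order. Of 48 measured genes, 41 were higher on metastatic replicate 1 and 7 on replicate 2, with a median gap of 0.75, and 17 had a gap of at least 1 toward replicate 1. Gbp6 had 9.76 and 7.49 log2 signal in the metastatic group, against 7.97 and 8.00 in the non-metastatic group. Ddx60 had 8.28 and 6.26, against 7.18 and 7.28, and the immunoproteasome gene Psmb9 had 9.35 and 7.70, against 8.64 and 8.05. Ifi27l2a had 12.66 and 10.70, against 11.48 and 10.24, and thus also a gap of 1.24 between the non-metastatic arrays. Ifi27 went the other way, with 11.58 and 12.16 on the metastatic arrays and 12.38 and 12.21 on the non-metastatic arrays. By group, the median difference of this list was 0.03. Its smallest p values belonged to Slfn2 (0.77, SE 0.25), Ly6e (0.38, SE 0.18), Ifi27 (-0.43, SE 0.21) and Pml (-0.20, SE 0.11), and none passed (limma adjusted p of 0.694 to 0.917).

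Other gene groups also differed between the metastatic arrays. All 17 genes of a hypoxia and glycolysis list were higher on metastatic replicate 2, with a median gap of -1.10 (-3.22 to -0.31), and 10 of 11 proliferation genes were too, with a median of -0.35. Leukocyte markers did not share the order of the interferon-stimulated genes, as 8 of 19 were higher on metastatic replicate 1 and the median gap was -0.11. Only 10 of the 19 had a mean above the median of all probe sets, where 11922 of all 18193 genes did. The pan-leukocyte gene Ptprc was dim on all 4 arrays (4.01 to 4.28 log2). The summed linear signal of the 19 markers was 1959 and 1839 on the metastatic arrays, against 2451 and 2355 on the non-metastatic arrays. Csf1r, the brightest marker, weighed most in this sum, with 9.61 and 9.26 log2 on the metastatic arrays and 9.88 and 10.07 on the non-metastatic arrays. The macrophage marker Cd68 had the widest leukocyte gap, 0.99, with 6.86 and 5.87 on the metastatic arrays and 7.04 and 6.44 on the non-metastatic arrays. Csf1r, Itgax and Itgam of this list were also higher on metastatic replicate 1, by 0.34, 0.31 and 0.23. Adgre1, Fcer1g, Tyrobp and Lyz2 went the other way, with gaps of -0.45, -0.25, -0.14 and -0.10. Lyz2 had 6.06 and 6.16 on the metastatic arrays, against 8.29 and 6.86 on the non-metastatic arrays. For comparison, the summed linear signal of the 36 members was 94273 and 50367 on the metastatic arrays and 65782 and 65772 on the non-metastatic arrays. Mural markers were higher on metastatic replicate 2 for 7 of 10 genes, with a median gap of -0.11 and the widest, -1.09, for Tagln. The summed linear signal of the 10 mural markers was 17980 and 28945 on the metastatic arrays, against 36220 and 34252 on the non-metastatic arrays. It mostly reflects the bright genes Acta2 and Tagln. Acta2 had 13.66 and 14.22 log2 on the metastatic arrays, against 14.49 and 14.45, and Tagln had 12.03 and 13.12, against 13.52 and 13.32. Reticular fibroblast markers were higher on metastatic replicate 1 for 6 of 9 genes, with a median gap of 0.31. Cxcl13, a chemokine that draws B cells, had the widest of these (2.26), with 9.84 and 7.58 on the metastatic arrays and 10.48 and 10.83 on the non-metastatic arrays. Lymphatic endothelial markers were higher on metastatic replicate 1 for 5 of 7 genes, with a median of 0.22 and the widest, 2.09, for Lyve1. Blood endothelial markers were so for 5 of 10, with a median of 0.02. Between the non-metastatic arrays, however, blood endothelial markers were higher on replicate 1 for 9 of 10 genes, with a median gap of 0.47. Median gaps of the other cell-type lists between those arrays ran from -0.15 (epithelial) to 0.20 (lymphatic). Epithelial markers were higher on metastatic replicate 2 for 7 of 10 genes, with a median of -0.06. The part of hypoxia, proliferation or any of these cell types in the gap was not tested. In RNA of a mixed preparation, fewer responding cells and less RNA per cell cannot be told apart.

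**Figure D4:**
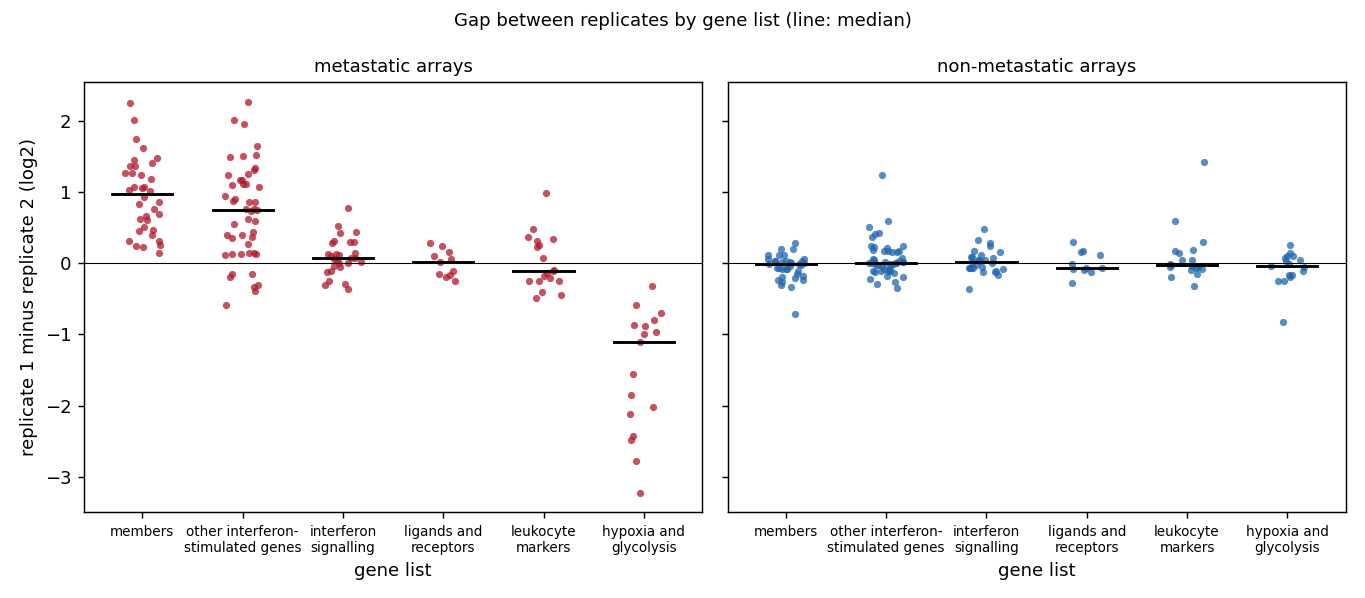
Replicate 1 minus replicate 2 (y axis, log2) for each gene (points) of 6 lists, between the metastatic arrays (left) and between the non-metastatic arrays (right), with list medians as lines. Between the metastatic arrays the medians are 0.97 for the members, 0.75 for other interferon-stimulated genes and -1.10 for hypoxia and glycolysis genes, and between the non-metastatic arrays all 6 lie close to zero.

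Over all probe sets the metastatic arrays were also somewhat further apart than the non-metastatic ones, with an SD of the gaps of 0.320 against 0.230 log2 units and a Pearson correlation across probe sets of 0.991 against 0.995. Medians over all genes on the 4 arrays were 7.16, 7.18, 7.20 and 7.21, while those over the members were 10.28 and 9.45 on the metastatic arrays and 9.93 and 9.85 on the non-metastatic arrays.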

How the data were processed

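RNA of 2 metastatic and 2 non-metastatic preparations was measured on Affymetrix arrays, 1 array each; per the labels' protocols, biotin labelling started from 3 ug of RNA and 20 ug of cRNA was fragmented. The deposited values run from 3.10 to 14.87, the range of log2 probe-set signals. How the probes were summarised or normalized is not given in the sources used here, and no detection calls were used. Array medians differed by 0.116, above a limit of 0.1, and limma's quantile normalization was applied. Of 45101 probe sets 64 controls were left out. Symbols were updated through Entrez numbers.

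Groups came from the sample titles. Differences (metastatic minus non-metastatic) were fitted with limma (lmFit, eBayes, 2 residual and 3.71 prior degrees of freedom) over all 45037 probe sets, with Benjamini-Hochberg adjustment and a threshold of 0.05. The number of arrays limits the precision. Titles call the preparations biological replicates.

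The members and lists were chosen with earlier results of these data known. Every member could be named, and of the pathway lists the 4 genes with the smallest p and the 4 with the widest gap between the metastatic arrays. Ifnar1, Ifnar2, the interferon genes, Lyve1, Emcn, Acta2, Tagln and Cxcl13 were named beyond that rule after their values were seen. So were the leukocyte markers Cd68, Csf1r, Itgax, Itgam, Adgre1, Fcer1g, Tyrobp and Lyz2. The fit was tested on simulated data. R 4.3.3, limma 3.58.1, Python 3.11.15 and matplotlib 3.10.9 were used. Alternatives were the deposited values, centred medians, only the brighter probe sets, averaging over a gene's probe sets, omission of probe sets shared between transcripts, trend and robust moderation, a replicate block, and each array left out in turn.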

Additional observations from a re-analysis of the deposited data

How the results depend on the processing

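Under the values as deposited, centred array medians, only the brighter probe sets (35 members left), averaging over a gene's probe sets, omission of probe sets shared between transcripts, and trend and robust moderation, 0 members passed, the median gap between the metastatic arrays ran from 0.93 to 1.13 and every member analysed was higher on metastatic replicate 1. Averaging over a gene's probe sets gave a median difference of 0.11, in place of 0.06, with 22 positive and 14 negative; trend and robust moderation called 4 of all genes (0.0220%). The count of members whose groups did not overlap upward was 3 with centred medians, in place of 5; the cause was not tested. A replicate block by the number in the titles, which the labels do not call a pairing, left 0 members called, against 93 of all 18193 genes (0.511%), where none was called without it, and a median difference of 0.06 (smallest adjusted p among members 0.297, limma); deviations of same-numbered arrays correlated at 0.248 over all probe sets, from only 2 pairs. With 1 array left out at a time, the lowest median difference was -0.39, without metastatic replicate 1, and the highest 0.58, without metastatic replicate 2, members without overlap upward numbered 5 to 34 (28.5% to 38.8% of all genes), and members without overlap downward 1 to 28 (28.5% to 40.7% of all genes). With fewer arrays in a group, overlap is less likely by construction. The mean signal was above the median of all probe sets for 35 of 36 members and for 11922 of all 18193 genes. Mx1 was dimmer, and no detection calls bound its values.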
